A study of Gallus gallus with 6 samples.

Results

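The miR-200 family, miR-203 and miR-205 (in chicken gga-miR-200a, gga-miR-200b, gga-miR-429, gga-miR-203, gga-miR-205a and gga-miR-205b) were examined in small RNA libraries of testis. Lines of the miRNA table were kept when their name, without the species prefix, was miR-200, miR-141, miR-429, miR-203 or miR-205 with any letter or arm, and lines of the same sequence were counted once. This gave 15 distinct sequences on 16 lines, of 1151 distinct sequences on 1302 lines in all. Of the 15 sequences, 8 belonged to miR-200, 3 to miR-203 and 4 to miR-205, and no line analysed here carried the name miR-141. The libraries came from the left testes of 40-week-old Cobb500 breeder cocks, a meat-type line. Birds of the A group ate feed with 10 g of Astragalus polysaccharide (APS, a sugar polymer fraction of a medicinal root) per kg, and those of the C group ate the corn and soybean diet without it. Each group had 3 libraries of unsorted testis tissue, and the comparison asks whether the additive changed testicular miRNA levels. The sample labels and the methods of the study differ in the number of birds, the RNA kit and the sequencer, and the birds behind each library are not numbered in the sources used here, so the p-values measure the spread between these 3 and 3 libraries only.

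The miR-200 family consists of short RNAs made from clustered hairpins, and each member recognises messenger RNAs mainly through its seed, bases 2 to 8. In mammals the family represses ZEB1 and ZEB2, repressors of the E-cadherin gene, so that it is known as a keeper of the epithelial state. In mammals miR-205 acts on the same ZEB messengers and is abundant in stratified and glandular epithelium, and miR-203 in mouse skin represses the stem cell factor p63 as keratinocytes differentiate. Testis holds germ cells, Sertoli cells, which line the seminiferous tubules as an epithelium, Leydig cells, peritubular muscle, vessels and the epithelial outlet ducts. In unsorted testis tissue fewer cells of a type and less RNA per cell cannot be told apart.

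The sequences of the more abundant arms with more than 1 count, which together carried nearly all of the counts, are given 5′ to 3′ in DNA letters. The seed is in capitals, because the families are told apart by it. The suffix R+1 marks 1 base more at the 3′ end than the listed miRNA and L-1 marks 1 base fewer at the 5′ end.
gga-miR-200b-3p: tAATACTGcctggtaatgatgat
gga-miR-429-3p: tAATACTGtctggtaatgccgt
bta-miR-200c: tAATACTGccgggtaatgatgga
gga-miR-200a-3p_R+1: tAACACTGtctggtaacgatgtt
gga-miR-203a_R+1: gTGAAATGtttaggaccacttgt
aca-miR-203-3p_L-1R+2: tGAAATGTttaggaccacttgtt
gga-miR-205a_R+1: tCCTTCATtccaccggagtctgt
gga-miR-205b_R+1: cCCTTCATtccaccggaatctgt
dre-miR-205-5p_R+3: tCCTTCATtccaccggagtctgagt
The 15 sequences were 21 to 25 bases long, with a median of 23, and had 9 different seeds. No other sequence of the table had a seed of a member (0 of the remaining 1136 sequences).

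Within miR-200, the sequences of gga-miR-200b-3p and gga-miR-429-3p shared the seed AATACTG, and gga-miR-200a-3p differed from gga-miR-200b-3p by 1 base of the seed. With positions counted from 1 at the 5′ end of gga-miR-200b-3p, gga-miR-200a-3p had the substitutions T4C, C9T, T17C and A22T, and gga-miR-429-3p had C9T, A19C, T20C and A22T. Among the miR-205 sequences the seed CCTTCAT was common to gga-miR-205a, gga-miR-205b and dre-miR-205-5p, and gga-miR-205b differed from gga-miR-205a by T1C and G18A, both outside the seed. The aca-miR-203-3p line, listed under a lizard name, began 1 base later than gga-miR-203a and was identical to it over the 22 bases that they shared. Its seed, GAAATGT, was therefore shifted by 1 base from TGAAATG. In the RefSeq gene table of the assembly GRCg7b, the genes MIR429, MIR141 (with the synonym gga-mir-200a) and MIR200B were direct neighbours in this order and overlapped TTLL10. In that table MIR203A overlapped MIR203B, MIR205 (gga-mir-205a) overlapped PLXNA2 and MIR205C, and MIR205B overlapped LOC416696.

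The libraries held 576714, 721285 and 632748 miRNA counts in the A group and 497286, 743187 and 533096 in the C group. The unit of level is CPM, the count scaled to a common library total after TMM (edgeR's scaling factor), and a count of 0 allows up to 3 counts, or 4.46 to 5.47 CPM in these libraries. Chicken testis markers were present, and miR-202, a gonadal miRNA, averaged 46693 ± 8465 CPM in A testes and 57900 ± 11957 CPM in C testes (SD, n = 3 each). The biological coefficient of variation was 30.5%. Sequences of other vertebrates that the study did not place in the chicken genome (its class gp3) numbered 142, 144 and 199 in the A libraries and 159, 254 and 148 in the C libraries. A replicate 3 and C replicate 2 stood above the rest in this number, and results that rest on them are also given without them. In the share of counts held by gp3 sequences they did not, being at 7.99% and 6.41%. C replicate 2 was the lowest library in this share and A replicate 1 the highest (8.46%).

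The 15 sequences together held 23288 counts, 0.629% of all counts of the 6 libraries. The miR-203 sequences made up 87.7% of these, the miR-205 sequences 6.99% and the miR-200 sequences 5.35%. By mean level over the 6 libraries, gga-miR-203a ranked 33 of the 1151 sequences, the shifted aca-miR-203-3p 83, gga-miR-205a 90, gga-miR-200a-3p 128 and gga-miR-200b-3p 157. The passenger-arm sequence tgu-miR-203-5p ranked 268, gga-miR-205b 361 and gga-miR-429-3p 388.

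**Figure D1:**
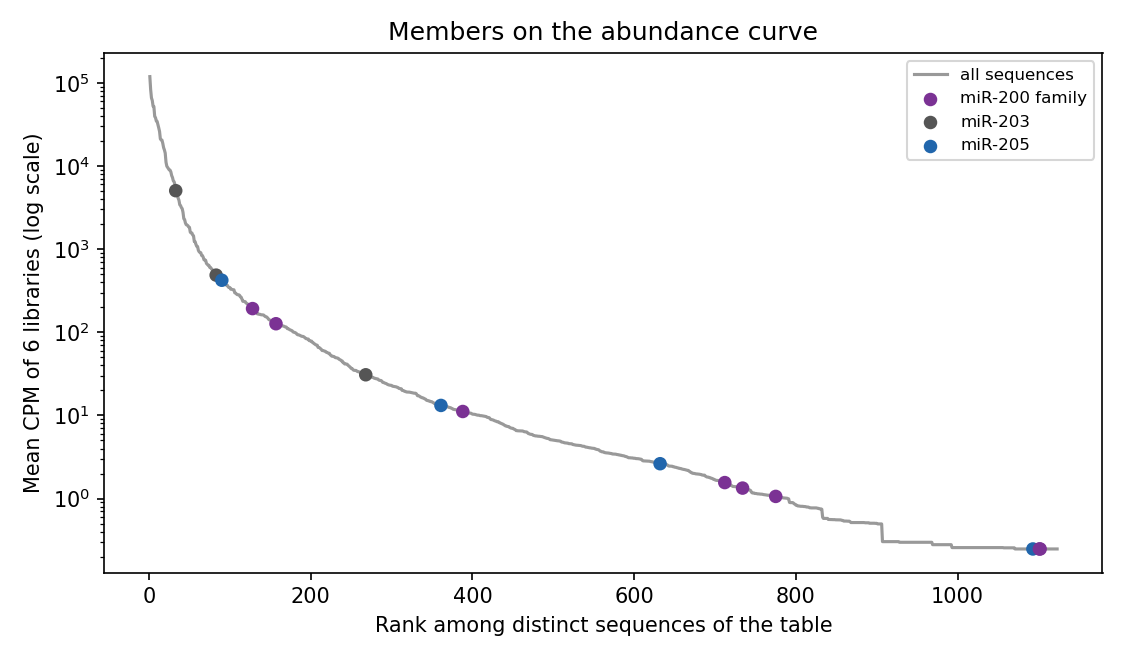
Mean level of each distinct sequence over the 6 libraries (CPM, log scale) against its rank among all sequences of the table, with miR-200, miR-203 and miR-205 sequences as coloured points. The most abundant member, gga-miR-203a, ranked 33 and the most abundant miR-200 sequence, gga-miR-200a-3p, ranked 128.

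At 4 of the 7 steps between the 8 most abundant sequences, neighbouring ranges over the 6 libraries did not overlap. The level of gga-miR-203a was 10.4 times that of the shifted aca-miR-203-3p, and their ranges did not overlap. The ranges of aca-miR-203-3p and gga-miR-205a overlapped, although aca-miR-203-3p was higher in 5 of 6 libraries. gga-miR-205a was 2.19 times gga-miR-200a-3p with no overlap, and gga-miR-200a-3p was 1.52 times gga-miR-200b-3p, higher in 6 of 6 libraries although their ranges over libraries overlapped. gga-miR-200b-3p was 4.11 times tgu-miR-203-5p, and that was 2.34 times gga-miR-205b, both in 6 of 6 libraries and without overlap. gga-miR-205b and gga-miR-429-3p were close to each other, with overlapping ranges. These ratios compare sequences of 21 to 23 bases. They are ratios of scaled counts, and how evenly the library method captured the different sequences was not measured.

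Across the 6 libraries the coefficient of variation was 8.20% for gga-miR-203a, 16.9% for aca-miR-203-3p, 17.6% for gga-miR-205a, 30.7% for gga-miR-200a-3p, 32.8% for gga-miR-200b-3p, 45.6% for gga-miR-429-3p, 35.2% for gga-miR-205b and 21.5% for tgu-miR-203-5p. The last 3 had 41, 49 and 113 counts in all, and whether the spread differs between the families or with the depth was not tested.

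**Figure D2:**
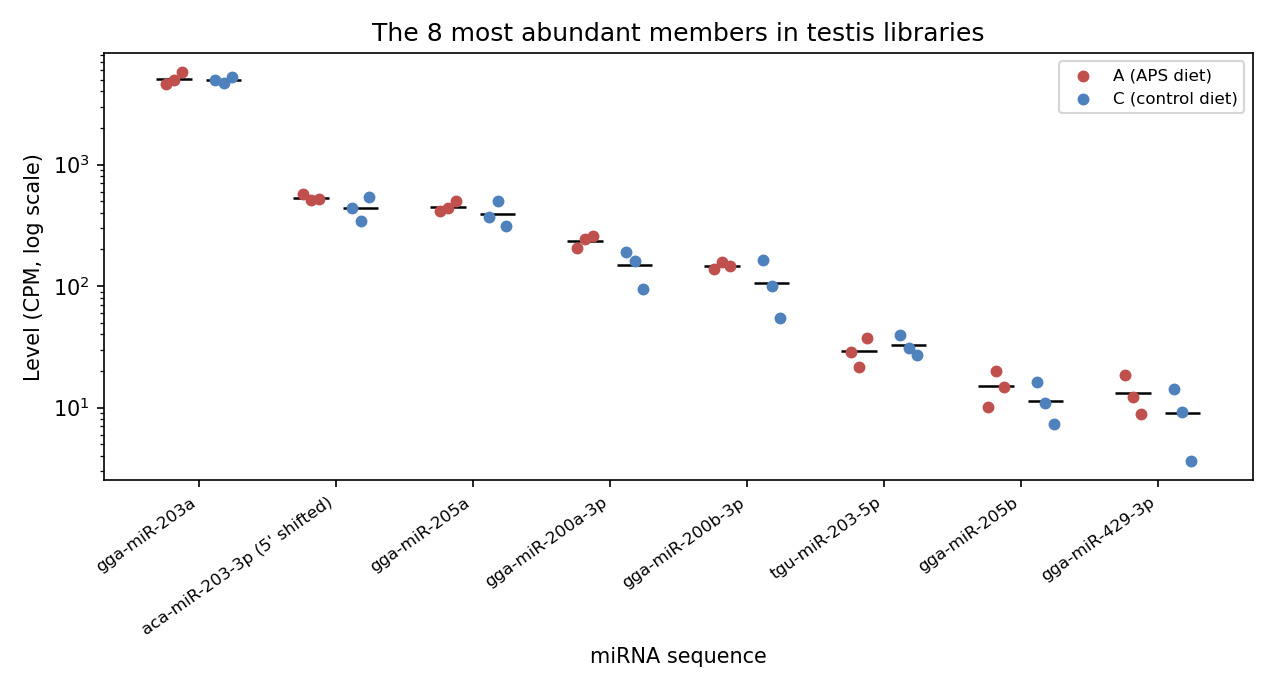
Level of the 8 most abundant sequences (CPM, log scale), with 1 point per library (A libraries left of C libraries) and a bar at the group mean. The A libraries lay above the C libraries without overlap for gga-miR-200a-3p only, at 204 to 256 CPM in A testes and 94.8 to 192 CPM in C testes.

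For the diet comparison, edgeR's quasi-likelihood test was applied to 774 sequences, among them 12 of the 15 members. The other members, gga-mir-205b-p3, hsa-miR-200b-3p and cfa-miR-429, had 1 count each, all in A replicate 3, and were below the limit on low values. None of the 12 passed an adjusted p under 0.05 (edgeR, Benjamini-Hochberg), and neither did any sequence of the table (0.0% of those tested, lowest adjusted p 0.559). At an unadjusted p under 0.05, 1 of the 12, gga-miR-200a-3p, was called, where 5.94% of all tested sequences (46) were. In CPM after TMM, the libraries of the 2 diets did not overlap, with A higher, for gga-miR-200a-3p, where this was so for 5.94% of all tested sequences. It was also so in form for gga-miR-200b-5p, with 4 counts in all against 0, which at this depth is no separation. No member had the opposite order, which 7.11% of all had. DESeq2's Wald test also called 0 sequences at an adjusted p under 0.05, and 23 at an unadjusted p under 0.05.

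Among the miR-200 cluster, gga-miR-200a-3p had the largest log2 fold change of the 8 members with a mean of at least 10 CPM. It was at 204, 246 and 256 CPM in A replicates 1 to 3, against 192, 162 and 94.8 CPM in C replicates 1 to 3. Every A library was above every C library in CPM, A replicate 1 and C replicate 1 being close to each other. The exact 95% Poisson intervals of these 2 overlapped (170 to 244 and 157 to 231 CPM). The separation rested on the TMM scaling. With library totals alone, C replicate 1 (107 of 497286 counts) was above A replicate 1 (122 of 576714 counts), so the groups overlapped. The means were 235 ± 27.3 CPM in A testes and 150 ± 49.6 CPM in C testes (SD, n = 3 each), and the log2 fold change, A over C, was 0.65 ± 0.28 (SE), with an edgeR p of 0.0416 before and 0.690 after adjustment. The exact two-sided permutation p was 0.1, the smallest that 3 against 3 libraries can give. Without C replicate 3 the log2 fold change was 0.41 (edgeR unadjusted p = 0.126), without A replicate 3 it was 0.59 (0.111) and without C replicate 2 it was 0.70 (0.0671). Without C replicate 1 it was 0.87 (edgeR unadjusted p = 0.0140, adjusted p = 0.693).

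The neighbouring gga-miR-200b-3p, which in mammals shares its main targets with gga-miR-429-3p through the common seed, had 137, 157 and 147 CPM in A libraries and 163, 100 and 54.7 CPM in C libraries. The A libraries were close together, and C replicate 1 was the highest of all 6, so the groups overlapped. The log2 fold change was 0.47 ± 0.35 (SE, edgeR adjusted p = 0.733). It was 0.16 without C replicate 3 and 0.91 without C replicate 1 (edgeR unadjusted p = 0.0157, adjusted p = 0.693). The latter was the only 1 of 16 alternatives with an unadjusted p under 0.05. gga-miR-429-3p was low, with 11, 8 and 6 counts in A libraries and 8, 6 and 2 counts in C libraries. Its log2 fold change of 0.52 ± 0.55 (SE) was within the spread, at an edgeR adjusted p of 0.821, and was 0.16 without C replicate 3, 0.22 without A replicate 1 and 0.97 without C replicate 1.

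All 3 cluster members were lowest in C replicate 3, gga-miR-429-3p with only 2 counts there. So were gga-miR-205a (312 CPM) and gga-miR-205b (7.29 CPM, 4 counts against 6 in A replicate 1), but not gga-miR-203a or aca-miR-203-3p. The share of all tested sequences that were lowest in C replicate 3 was not counted, so this is no trait particular to these families. The exact 95% Poisson interval of the count, which covers counting error only, was 70.8 to 124 CPM for gga-miR-200a-3p in that library, below the interval of each other library, the nearest being 133 to 196 CPM in C replicate 2. For gga-miR-200b-3p it was 36.9 to 78.0 CPM in C replicate 3, touching the 77.5 to 128 CPM of C replicate 2, and for gga-miR-429-3p it was 0.441 to 13.2 CPM and overlapped every library. The sum of all miR-200 sequences was 367, 419 and 420 CPM in A testes and 370, 278 and 153 CPM in C testes. C replicate 1 lay inside the range of the A libraries, so the groups overlapped in this sum. Its means of 402 ± 30.3 and 267 ± 109 CPM (A and C, SD, n = 3 each) gave a log2 ratio of 0.59, which was 0.31 without C replicate 3 and 0.90 without C replicate 1. Other lists of cell type markers were lowest in C replicate 3 for white blood cells only (1044 CPM, against 1333 to 2054 CPM in the other libraries). The part of white cells in the low miR-200 values was not tested.

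**Figure D3:**
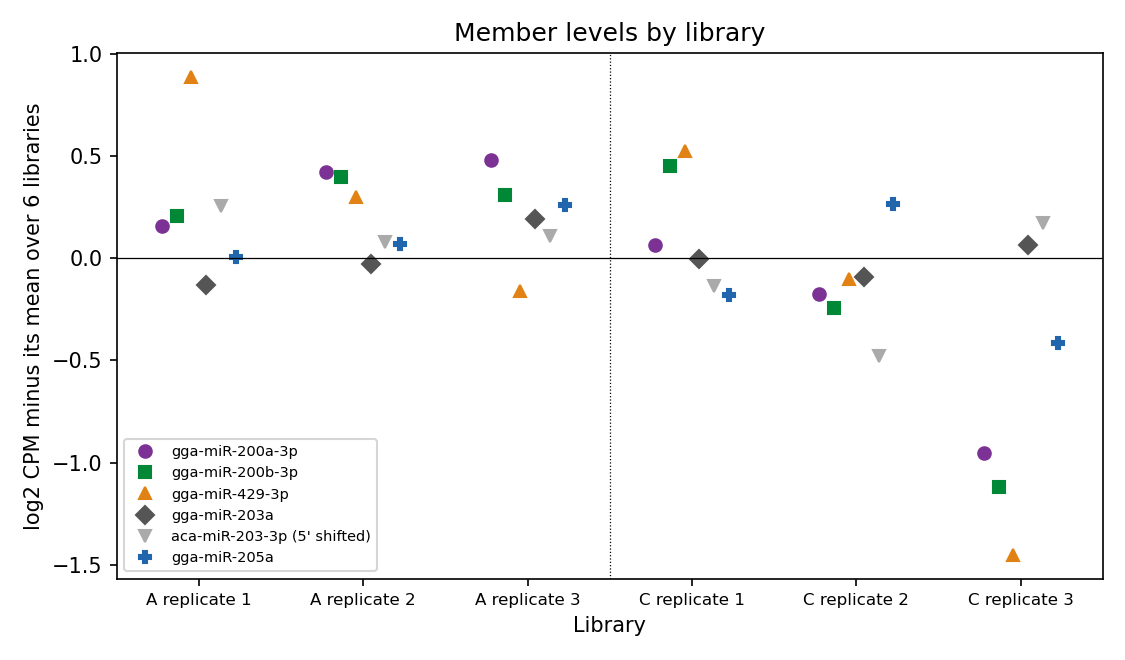
Level of 6 sequences in each library as log2 CPM minus its mean over the 6 libraries (y axis), with A libraries left of C libraries. The 3 miR-200 cluster members were at -0.95, -1.12 and -1.45 in C replicate 3. In that library gga-miR-205a was at -0.42, also its lowest, gga-miR-203a at 0.067 and aca-miR-203-3p at 0.17.

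Within the cluster, the ratio of gga-miR-200a-3p to gga-miR-200b-3p counts was 1.49, 1.57 and 1.74 in A libraries and 1.18, 1.62 and 1.73 in C libraries, with means of 1.60 ± 0.13 and 1.51 ± 0.29 (A and C, SD, n = 3 each), so that the ranges overlapped. gga-miR-429-3p counts were 13.4%, 7.84% and 6.06% of those of gga-miR-200b-3p in A libraries and 8.79%, 9.23% and 6.67% in C libraries. The ranges overlapped here too. By seed, the one of gga-miR-200a-3p took 454 counts in A testes and 264 in C testes. The seed AATACTG, shared by gga-miR-200b-3p, gga-miR-429-3p, bta-miR-200c, hsa-miR-200b-3p and cfa-miR-429, took 312 counts in A testes and 206 in C testes. Scaled for depth, this seed was at 157, 169 and 161 CPM in A libraries and 177, 116 and 58.3 CPM in C libraries, so the groups overlapped. The opposite arms were rare. gga-mir-200a-p5 had 1, 2 and 1 counts in A libraries and 1, 0 and 0 in C libraries (edgeR adjusted p = 0.809) and made up 0.692% of the counts of that hairpin (Wilson 95% interval 0.296% to 1.61%), and gga-miR-200b-5p made up 0.846% of its own (0.329% to 2.15%). gga-miR-200b-5p had 2, 1 and 1 counts in A libraries and 0 in each C library. Its levels in A libraries, 1.49 to 3.35 CPM, were all under the level that a count of 0 allows, so no fold is given (edgeR adjusted p = 0.690).

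Sequences under names of other species were few in miR-200. The line named bta-miR-200c, for a mammalian member, differed from gga-miR-200b-3p by T11G, A22G and T23A and had 1, 0 and 1 counts in A libraries and 0, 4 and 0 counts in C libraries. Leaving out miR-203, the gp3 members held 1, 2 and 7 counts in A libraries and 0, 6 and 2 in C libraries, most of them in A replicate 3 and C replicate 2, the libraries with the most gp3 sequences. The hsa-miR-200b-3p line differed from gga-miR-200b-3p by T23C and 1 extra base, and the cfa-miR-429 line was gga-miR-429-3p with 2 extra bases.

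miR-203, the most abundant of the families here, was level between diets. gga-miR-203a was at 4582, 4916 and 5729 CPM in A libraries and 5001, 4718 and 5259 CPM in C libraries. The highest and the lowest library were both from A testes. Means were 5076 ± 590 CPM in A testes and 4992 ± 271 CPM in C testes (SD, n = 3 each), and the log2 fold change was 0.024 ± 0.15 (SE; edgeR adjusted p = 0.970). Its sign was not stable under other scalings, being -0.012 with the valid reads as library sizes. The sum of the miR-203 sequences was likewise 5636 ± 575 CPM in A testes and 5465 ± 366 CPM in C testes.

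The shifted aca-miR-203-3p, whose seed differs from that of gga-miR-203a, was at 571, 507 and 516 CPM in A libraries and 437, 345 and 539 CPM in C libraries. C replicate 3 lay among the A libraries and the other C libraries below them. The log2 fold change was 0.27 ± 0.21 (SE; edgeR adjusted p = 0.743), with 0.11 without C replicate 2 and 0.44 without C replicate 3. Of both 3p forms together, the shifted form was 11.1%, 9.34% and 8.27% in A libraries and 8.03%, 6.81% and 9.30% in C libraries, or 9.56% ± 1.42 in A testes and 8.05% ± 1.25 in C testes (SD, n = 3 each; exact two-sided permutation p = 0.2). It was classed as gp3 by the study and was split equally over 2 lines of the table. tgu-miR-203-5p, named after zebra finch, had 17, 14 and 25 counts in A libraries and 22, 20 and 15 counts in C libraries. It made up 0.512% ± 0.10 of the miR-203 counts in A testes and 0.598% ± 0.13 in C testes, and its log2 fold change was -0.16 ± 0.34 (SE; edgeR adjusted p = 0.918), with -0.011 without C replicate 1, -0.016 without A replicate 2, -0.27 without C replicate 3 and -0.38 without A replicate 3.

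For miR-205, gga-miR-205a was at 417, 436 and 498 CPM in A libraries and 367, 501 and 312 CPM in C libraries. C replicate 2 was the highest and C replicate 3 the lowest of the 6, so that the C libraries enclosed the A libraries. Means were 451 ± 42.5 CPM in A testes and 393 ± 97.2 CPM in C testes (SD, n = 3 each), and the log2 fold change was 0.20 ± 0.22 (SE; edgeR adjusted p = 0.835), with 0.054 without C replicate 3, 0.12 without A replicate 3 and 0.39 without C replicate 2. gga-miR-205b had 6, 13 and 10 counts in A libraries and 9, 7 and 4 counts in C libraries, a log2 fold change of 0.39 ± 0.46 (SE; edgeR adjusted p = 0.840), with 0.10 without A replicate 2, 0.16 without C replicate 3, 0.61 without A replicate 1 and 0.71 without C replicate 1. It was 3.21% ± 1.05 of the counts of both chicken miR-205 sequences in A testes and 2.87% ± 1.16 in C testes (SD, n = 3 each). dre-miR-205-5p, under a zebrafish name, differed from gga-miR-205a by T23A and 2 extra bases and had 0, 2 and 4 counts in A libraries and 0, 2 and 2 in C libraries.

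Of the 8 members with a mean of at least 10 CPM, 7 had a positive log2 fold change, with a median of 0.33. Among the 7, gga-miR-203a (0.024 ± 0.15, SE) kept its sign in 10 of 16 alternatives. Without C replicate 3, gga-miR-200a-3p was at 0.41, gga-miR-200b-3p at 0.16, gga-miR-429-3p at 0.16, gga-miR-205a at 0.054 and gga-miR-205b at 0.16. In that fit gga-miR-203a was at 0.063, aca-miR-203-3p at 0.44 and tgu-miR-203-5p at -0.27. Over all 408 tested sequences of at least 10 CPM, 50.2% were positive, with a median of 0.0065, and the libraries did not overlap, with A higher, for 8.58%. This is a description of sequences that partly share a seed or a cluster.

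**Figure D4:**
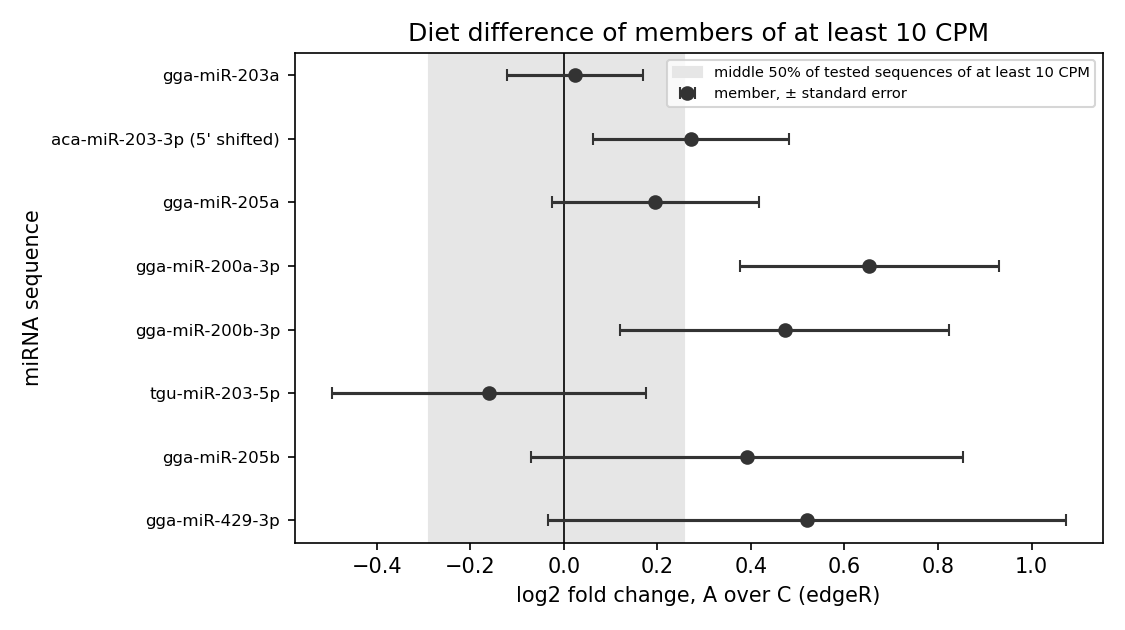
Log2 fold change, A over C, of the 8 members with a mean of at least 10 CPM (points, with the standard error from edgeR as bars). The grey band spans the middle 50% of the 408 tested sequences of that level, from -0.29 to 0.26, and gga-miR-200a-3p (0.65), gga-miR-200b-3p (0.47), gga-miR-429-3p (0.52), gga-miR-205b (0.39) and aca-miR-203-3p (0.27) lay above it.

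Levels of 5 members were related over the 6 libraries, as 10 pairs. gga-miR-200a-3p and gga-miR-200b-3p had a Pearson r of 0.94 (exact permutation p = 0.0194, Benjamini-Hochberg p = 0.194) and a Spearman rho of 0.60 (exact permutation p = 0.242, Benjamini-Hochberg p = 0.991), and r was 0.75 without A replicate 3 and C replicate 3. gga-miR-200b-3p and gga-miR-429-3p had an r of 0.88 (exact permutation p = 0.0458, Benjamini-Hochberg p = 0.229) and a rho of 0.54 (exact permutation p = 0.297, Benjamini-Hochberg p = 0.991), but r was -0.27 without C replicates 2 and 3, so the relation rested on those libraries. gga-miR-203a had an r of 0.032 with gga-miR-200a-3p and of -0.10 with gga-miR-200b-3p (exact permutation p = 0.949 and 0.849). With gga-miR-429-3p its r was -0.53 (exact permutation p = 0.283). For gga-miR-205a, r was 0.71 with gga-miR-200a-3p and 0.54 with gga-miR-200b-3p (exact permutation p = 0.104 and 0.299). The first was -0.35 without A replicate 3 and C replicate 3, and the second -0.44 without C replicates 2 and 3. None of the 10 pairs passed an adjusted p under 0.05, and 3 libraries per diet were too few to test a relation within a diet.

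Over the 228 other sequences with a mean of at least 50 CPM, the levels most like gga-miR-200b-3p were those of gga-miR-200a-3p (r = 0.94 over 6 libraries), gga-mir-7480-1-p5_1ss13GT (0.92) and ccr-miR-17-5p_R+2 (0.89). Most like gga-miR-203a were gga-miR-499-5p_R-2 (0.95), the predicted PC-3p-86168_53 (0.83) and hsa-miR-32-3p_R-1_2ss15TC20TC (0.80). Most like gga-miR-205a were gga-miR-219b_R-1 (0.95), gga-miR-23b-3p (0.80) and gga-miR-27b-3p (0.79). These are descriptions over libraries that also share depth and tissue make-up, and gga-miR-203a stood at place 131 for gga-miR-200b-3p.

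Other miRNAs that mark epithelial cells in mammals were summed as a list (miR-182, miR-183, miR-96, miR-375, miR-31, miR-192, miR-194 and miR-215). The list had 12 tested sequences, 5 with a positive log2 fold change and 1 with an edgeR unadjusted p under 0.05, which was lower in A testes, and none passed adjustment. Its sum was 4667 to 5090 CPM in A testes and 4596 to 5329 CPM in C testes, of which miR-31 was 4614 ± 261 CPM in A testes and 4512 ± 220 CPM in C testes (SD, n = 3 each). miR-183, which is made from 1 cluster with miR-96 and miR-182, averaged 7.27 ± 0.51 CPM in A testes and 6.34 ± 8.09 CPM in C testes. In C replicates 1 and 3 it was under the level that a count of 0 allows. miR-96 averaged 33.7 ± 4.54 and 24.5 ± 2.50 CPM (A and C). As for gga-miR-200a-3p, its A libraries (28.5 to 36.8 CPM) lay above its C libraries (21.9 to 26.8 CPM) without overlap. This order held for 5.94% of all tested sequences. For both sequences it rested on the TMM scaling. With library totals alone, C replicate 1 was above A replicate 1, also for miR-96 (26.8 and 28.5 CPM after TMM). Means lower in A than in C testes were those of miR-215 (130 ± 67.8 and 223 ± 158 CPM), miR-194 (36.2 ± 19.7 and 60.6 ± 43.8 CPM) and miR-375 (10.7 ± 5.11 and 18.8 ± 11.6 CPM). miR-192 and miR-182 averaged under the level that a count of 0 allows in both groups. In C replicate 3, where the miR-200 members were lowest, miR-96 (21.9 CPM) and miR-183 (0 counts) were also at their lowest of the 6 libraries. miR-182 had 0 counts there, as in 3 other libraries. The other list members were not at their lowest in that library. These were miR-375 (7.29 CPM), miR-192 (1.82 CPM), miR-194 (21.9 CPM), miR-215 (102 CPM) and miR-31, at 4470 CPM within the 4317 to 4915 CPM of the rest.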

How the data were processed

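The authors processed reads with ACGT101-miR 4.2 (submitters' notes), allowing 1 mismatch to miRBase precursors, with a chicken genome of a build not given in the sources used here. Raw columns, as deposited, hold expected counts, because reads of a sequence with several lines were shared between these. Further columns deposited by the authors were normalized values, a signal scaled by 1 constant per library, and group means, a fold ratio, the log2 of that ratio and a p-value without adjustment. These comparison columns were not used. Values were summed per sequence and rounded (94.3% were whole within 0.001 before rounding). Sequences whose mean normalized value reached 1 in A or in C (774, with 377 below) were tested with edgeR 4.0.16 (TMM, quasi-likelihood, Benjamini-Hochberg, R 4.3.3) over all 6 libraries. Standard errors were obtained from the log2 fold change and the square root of F. CPM values, exact permutation tests and correlations (log2 CPM; likeness with 0.5 added) were computed in Python 3.11.15 with numpy 2.4.6, pandas 2.3.3 and scipy 1.17.1, and plots in matplotlib 3.10.9.

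Every member was named with its counts or CPM. Likeness named the 3 sequences of at least 50 CPM with the highest r. Members and lists were chosen with earlier results of these data known. Intervals and floors cover counting error only, as PCR copies carried no molecular tags. Counts of 774 sequences, 200 of them changed, were simulated and tested with edgeR. An adjusted p under 0.05 was reached in 4.48% of 1.5-fold, 14.9% of 2-fold and 45.5% of 4-fold changes. These rates come from a single draw at the trended dispersion. They depend on the number of sequences changed, so they need not hold for the real comparison. Alternatives were 2 other filters, other scalings, DESeq2 1.42.0, the test of the study, features per name, no gp3, the replicate number as a block and each library left out. The constants of the normalized values as library sizes were added after seeing the data.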

Additional observations from a re-analysis of the deposited data

How the results depend on the processing

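Sequences called at an adjusted p under 0.05 numbered 0 in the edgeR fit as reported and 12 with no filter on low values (1 higher and 11 lower in A testes), none of them a member, and 0 under the other alternatives, with each library left out 0. At an unadjusted p under 0.05 there were 46 (19 higher and 27 lower), against 84 with no filter, 29 with a minimum of 10, 23 with DESeq2's Wald test and 30 to 61 with 1 library left out, the lowest without A replicate 1. With the valid reads as library sizes the split was 10 higher and 31 lower. With the replicate block 0 were called after and 60 before adjustment. Same-numbered libraries had correlations of 0.22, 0.16 and -0.19, and differently numbered ones had -0.30 to 0.15. With so few pairs these values cannot decide whether the numbers pair the libraries.

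The log2 fold change of gga-miR-200a-3p was positive in 16 of 16 alternatives (0.41 to 0.87), with an edgeR, DESeq2 or study-test unadjusted p under 0.05 in 6 and adjusted p from 0.329 to 0.992. That of gga-miR-203a turned negative with the valid reads (-0.012), the authors' constants (-0.0031), the test of the study (-0.0031), 1 feature per name (-0.033), without A replicate 3 (-0.072) and without C replicate 2 (-0.030), with 0.092 as its highest value with 1 library left out. With 1 library left out bta-miR-200c was at -1.47 to 2.59, positive only without C replicate 2, and dre-miR-205-5p at -0.47 to 0.93, negative without A replicate 3 (-0.47) and without C replicate 1 (-0.12). With 1 library left out the log2 ratio of the summed levels was 0.31 to 0.90 for miR-200, -0.041 to 0.10 for miR-203 and 0.063 to 0.41 for miR-205. The share of the shifted miR-203 form has no value without gp3, since it is gp3 itself. Depth limits the low members: 6 of the 15 had fewer than 10 counts. In the test of the study, the unadjusted p of gga-miR-200a-3p was 0.0664. The only member under 0.05 in that test was gga-miR-200b-5p (unadjusted p = 0.0248, adjusted p = 0.738), which had 4 counts in all.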
